A study of Rattus norvegicus with 8 samples.

Results

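The interferon-induced genes described here are 45 rat genes named in a list of known targets of interferons and matched to array probes by gene name, older synonym or RefSeq record. Of the 45 genes, 43 were found on the array, on 55 of its 41012 gene probes, and 41 were bright enough on enough arrays to be tested, among 24462 genes tested in all. Xaf1 and Samd9l were matched to no probe.

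The RNA came from 8 kidney allografts on 1-colour Agilent arrays. Kidneys of Dark Agouti rats (DA, RT1a) were stored at 4 °C for 25 min and placed into male Lewis rats (LEW, RT1l), which differ from the donors in the major histocompatibility complex and had lost both of their own kidneys. All grafts were taken 24 h after surgery, and the labels give the rats' body weights (120 to 250 g) but no ages. Each of the 4 groups held 2 biological replicates. High-difference grafts came from donors 20 to 50% lighter than their recipients, and low-difference grafts from donors 0 to 20% lighter. The anti-IL6R group held high-difference grafts whose recipients received 500 µg of a neutralizing antibody against the interleukin-6 receptor intravenously directly after surgery. The prednisolone group held high-difference grafts whose recipients received 15 mg/kg of that glucocorticoid instead. No group of untransplanted or syngeneic kidneys was analysed here, so every level is that of an allograft, and the treated groups have no group of low-difference grafts with the same treatment.

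Type I interferons are recognised by the receptor pair IFNAR1 and IFNAR2, whose kinases JAK1 and TYK2 phosphorylate STAT2. STAT2 and IRF9 are parts of a factor that binds the interferon-stimulated response element (ISRE). Interferon-gamma, made mainly by T cells and natural killer (NK) cells, acts through IFNGR1, IFNGR2, JAK1 and JAK2 on genes with the gamma-activated site (GAS), and through IRF1, which binds ISRE-like letters. In kidney allografts interferon-gamma-induced GTPases and histocompatibility genes are a known feature of T cell-mediated rejection.

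Promoter windows from RefSeq (assembly GRCr8; 250 bases before to 50 bases after the annotated gene start) were found for 35 of the 45 genes. The ISRE letters searched were GAAA, 2 bases of any kind and again GAAA, on both strands, and the GAS letters were TTC, 3 bases of any kind and GAA, which read the same on both strands; matches of both kinds may overlap. ISRE letters stood in 24 of the 35 windows (68.6%) and in 1131 of the 27456 windows of all genes (4.12%). GAS letters stood in 11 of the 35 (31.4%) and in 2577 of all (9.39%), and 9 of the 35 held both. The nearest ISRE match began within 150 bases before the start in 22 of the 24 genes. The windows of Mx1, Oasl, Cmpk2, Stat2, Herc6, Parp9, Ifi35, Samd9l and Trim25 held neither kind of letters. The stretches below are shown for 5 genes with large differences between the groups (Gbp2, Gbp5, Igtp, Irf7 and Bst2), for Oas1a with its pair of overlapping ISRE matches, and for Isg20 and Parp14, which hold the same kind of letters but differed in the other direction or hardly at all; they were picked after the values were seen. Each is written 5′ to 3′ on the gene's strand, with ISRE and GAS matches in capitals.
Gbp2, chr2:234005666-234005726, plus strand: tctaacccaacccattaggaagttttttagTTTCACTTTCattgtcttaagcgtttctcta
Gbp5, chr2:233910913-233910982, plus strand: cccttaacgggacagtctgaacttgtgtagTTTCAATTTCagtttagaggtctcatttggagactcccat
Igtp, chr10:42874914-42874983, plus strand: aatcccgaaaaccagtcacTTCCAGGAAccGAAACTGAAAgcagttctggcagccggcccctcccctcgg
Irf7, chr1:205800053-205800122, minus strand: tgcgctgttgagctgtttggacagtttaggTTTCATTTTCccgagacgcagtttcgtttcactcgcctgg
Bst2, chr16:18255053-18255122, minus strand: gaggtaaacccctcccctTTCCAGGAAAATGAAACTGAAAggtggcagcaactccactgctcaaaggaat
Oas1a, chr12:41330401-41330465, plus strand: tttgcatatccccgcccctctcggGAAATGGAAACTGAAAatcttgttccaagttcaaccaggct
Isg20, chr1:142239937-142240006, plus strand: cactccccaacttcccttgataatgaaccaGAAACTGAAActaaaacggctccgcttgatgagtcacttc
Parp14, chr11:78408028-78408097, plus strand: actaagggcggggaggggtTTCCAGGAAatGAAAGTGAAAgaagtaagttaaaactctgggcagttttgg

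In Igtp and Parp14 the ISRE match began 11 bases after the first base of a GAS match. Of the 172 windows in the whole table that held both kinds of letters, 4 had a forward ISRE match at that distance, and 3 of these belonged to the listed genes: Igtp, Parp14 and Irgm. The distance was noticed after the sequences were read. Values of these genes were apart: the log2 difference of high- minus low-difference grafts was -1.62 for Irgm, -0.87 for Igtp and 0.01 for Parp14.

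**Figure D1:**
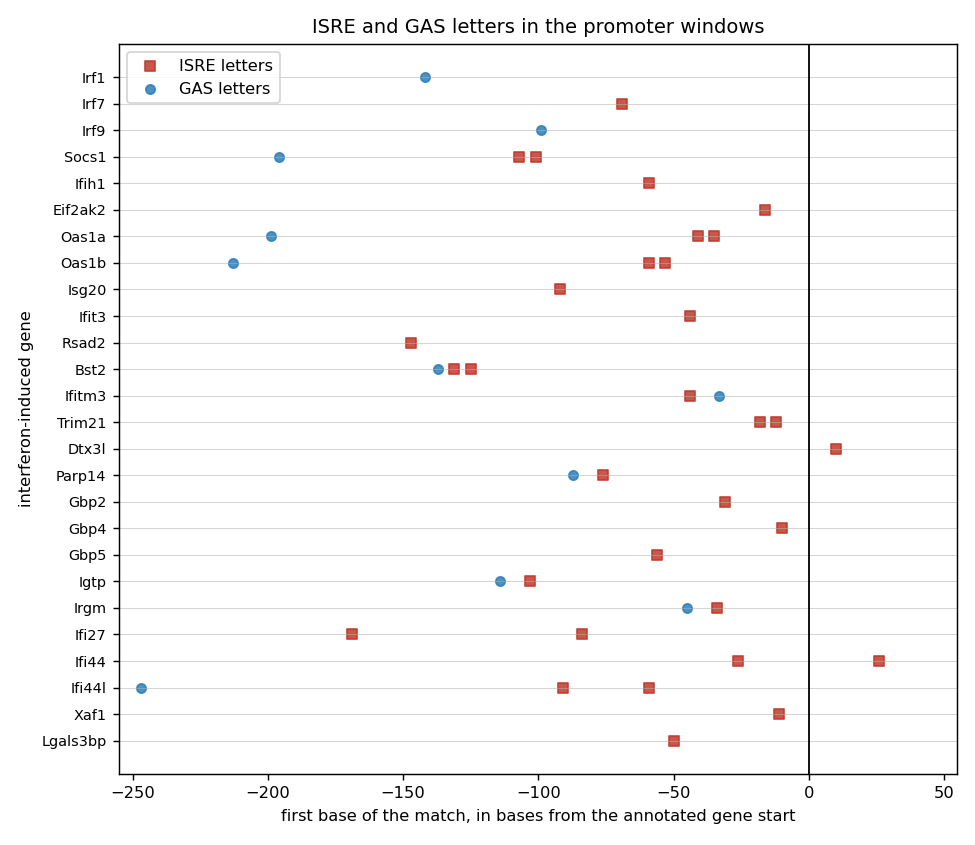
Position of ISRE letters (red squares) and GAS letters (blue circles) in the promoter windows of the interferon-induced genes that held either. The horizontal axis gives the first base of each match in bases from the annotated gene start, and ISRE matches lay between -169 and 26.

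Levels are log2 processed signals after subtraction of each array's 75th percentile, so a level compares 1 probe across arrays, not different genes. Spots well above background were fewest on both high-difference arrays (66.5% and 65.3% of gene spots) and the second prednisolone array (64.5%), and lay between 70.2% and 74% on the others. Replicates correlated least in the prednisolone group (Pearson's r over genes of 0.9565, against 0.9812 to 0.9923 in the others). Untreated grafts were hybridised on 1 slide and treated grafts on the other, so treatment and slide cannot be told apart, whereas high against low and anti-IL6R against prednisolone lie within a slide.

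Most of the 41 genes were lowest in untreated high-difference grafts and in 1 of the prednisolone grafts. In the median over the genes, levels relative to each gene's mean over the 8 arrays were -0.55 and -0.19 in high-difference grafts, 0.22 and 0.28 in low-difference grafts, and 0.20 and 0.40 with anti-IL6R. On the prednisolone arrays the same median was 0.45 and -0.67. The high-difference pair thus lay below both the low-difference and the anti-IL6R pair, and the prednisolone pair held both the highest and the lowest value of the 8.

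**Figure D2:**
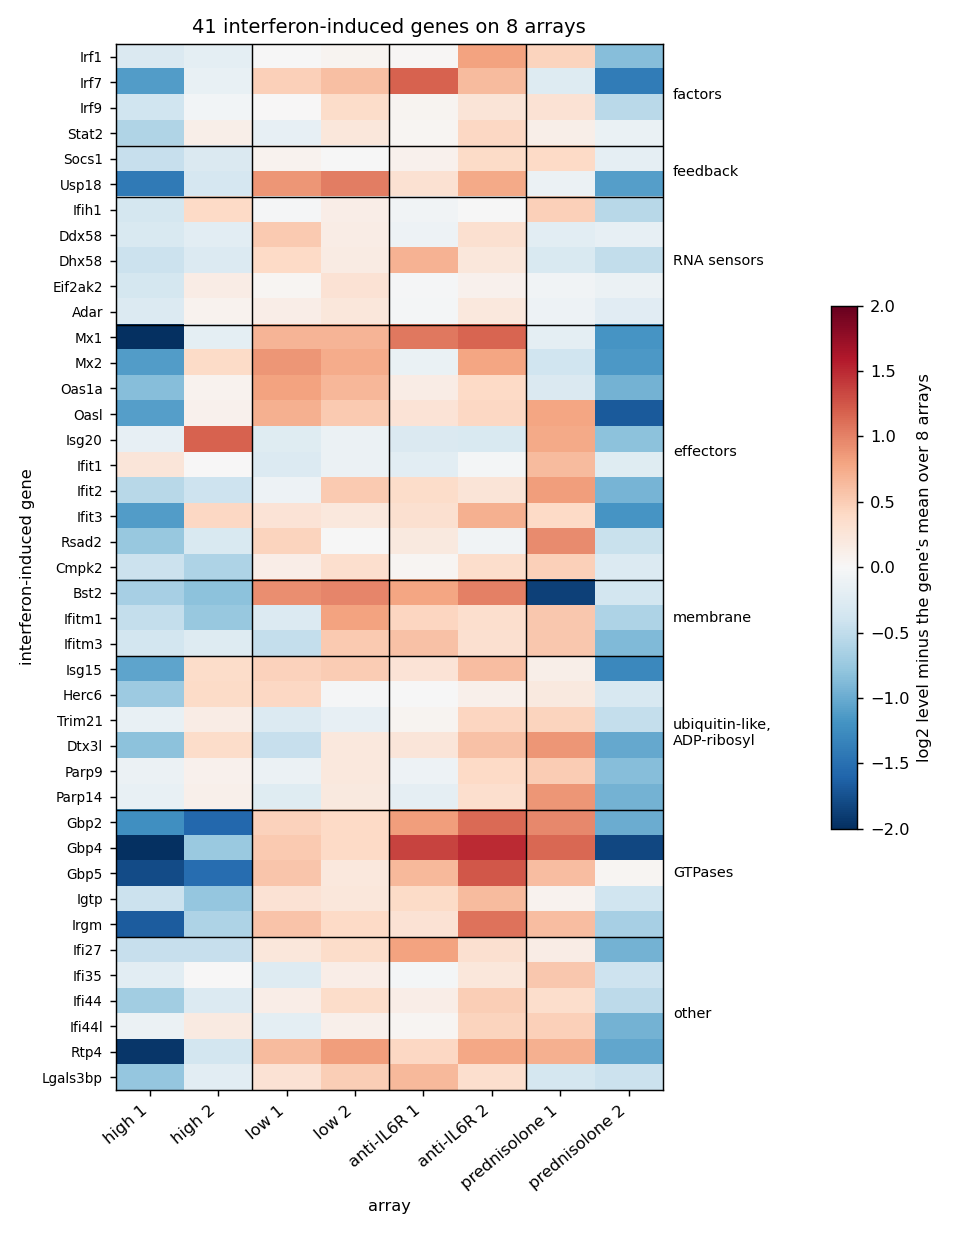
Level of 41 interferon-induced genes (rows, by role) on each of the 8 arrays (columns), as the log2 level minus the gene's mean over the 8 arrays; red is above and blue below that mean. The rows are mostly blue on the first high-difference and the second prednisolone array, which held the lowest level of 15 and 20 of the 41 genes.

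No gene on the array passed an adjusted p of 0.05 in any of the 6 comparisons between groups (limma, Benjamini-Hochberg over 24462 genes; 0% of all genes in each), so 0 of the 41 did, and the differences below are sizes with their errors. In high minus low difference, 36 of the 41 genes were below 0, as were 44% of all genes; the median difference was -0.70 on the log2 scale, against 0.07 over all genes. Both high-difference arrays lay under both low-difference arrays for 27 genes (23% of all genes) and over them for 2 (33.5%). An unadjusted p under 0.05 with a lower level was found for 14 (6.43%) and with a higher level for 0 (8.24%). The count of 14 depends on single arrays, since it was 5 without the first high-difference or the second low-difference array and 6 without the first low-difference array.

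Anti-IL6R minus high difference gave values of similar size on the other side of 0. These 2 comparisons share the high-difference arrays, so their values are set side by side and are not independent. Of the 41 genes, 38 were above 0 (43.2% of all genes), with a median of 0.71 against -0.09 over all genes. The anti-IL6R arrays lay above both high-difference arrays for 25 genes (23.5%) and below them for 2 (36.3%), and 15 had an unadjusted p under 0.05 with a higher level (7.09%) and 0 with a lower level (10.6%). The count of 15 became 8 when either anti-IL6R array was left out and 6 when the first high-difference array was. When either prednisolone array was left out of the fit, Bst2, Gbp2 and Gbp5 passed the adjusted threshold here, as did 0.633% (without the first) and 0.503% (without the second) of all genes. Gbp5 was not well above background on either high-difference array and was kept only through brighter groups. Its direction was thus partly set by that filter, and only the bound given below holds. Over the 34 genes well above background on all 8 arrays, the medians were -0.66 for high minus low, with 30 below 0, and 0.68 for anti-IL6R minus high, with 31 above 0.

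**Figure D3:**
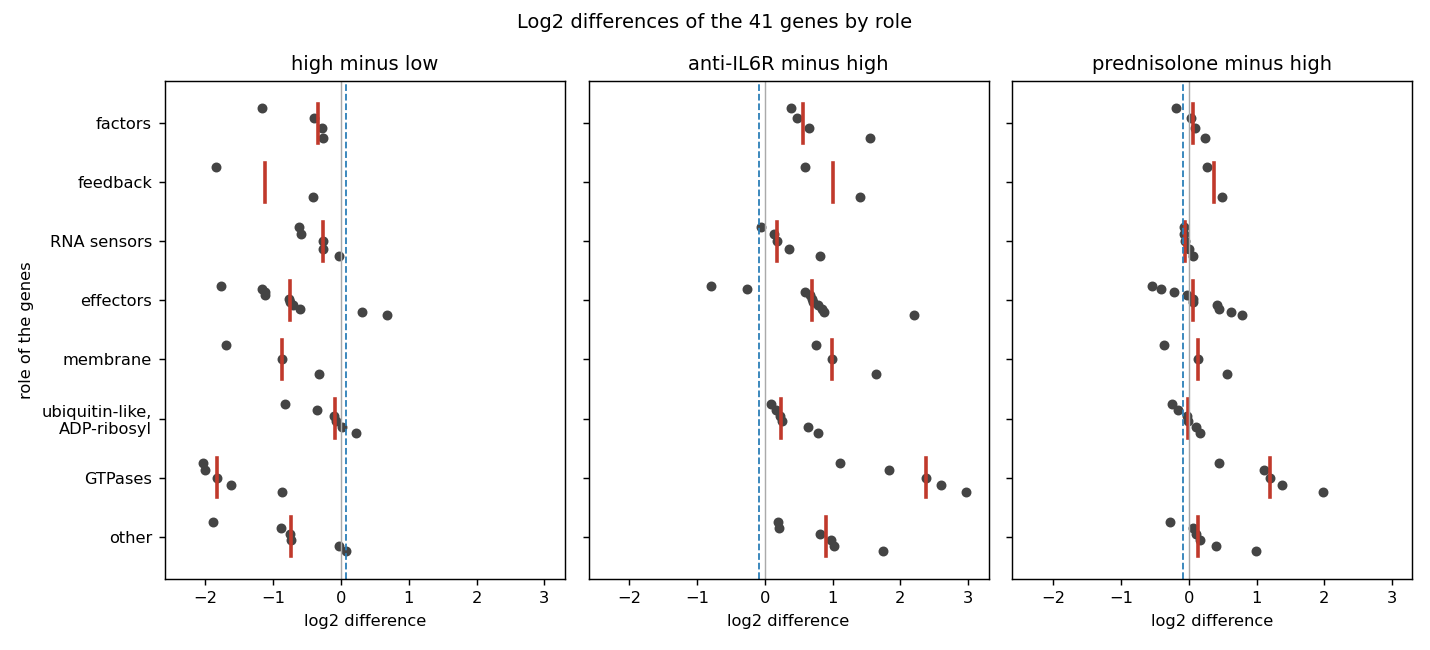
Log2 differences of the 41 genes in 3 comparisons that share the high-difference arrays (panels), by role (rows). Each point is a gene, red bars are medians of a role and the dashed line is the median of all genes tested; the GTPases lie farthest from 0, and Gbp4 and Gbp5 among them were not well above background in high-difference grafts.

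The interferon-inducible GTPases, which attack the vacuoles of intracellular microbes, had the medians farthest from 0 of any role. Gbp2, Igtp and Irgm were well above background on all 8 arrays and were lower on both high-difference arrays than on any low-difference or anti-IL6R array. The median of these 3 was -1.62 for high minus low, 1.83 for anti-IL6R minus high and 1.11 for prednisolone minus high. Gbp4 and Gbp5 were kept only through the groups in which they are brighter, and with them the first 2 medians were -1.83 and 2.38. With normexp, an alternative background correction, the medians over all 5 were -0.72 and 1.0. In high minus low the membrane effectors, at -0.87, and the other induced genes, at -0.81, then lay farther from 0. For Gbp2, Igtp and Irgm, the median level relative to each gene's mean was 0.62 and -0.67 on the prednisolone arrays. In high-difference grafts it was -1.23 and -0.78.

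Gbp2, a guanylate-binding protein, had levels of 2.16 and 1.82 in high-difference grafts, 3.85 and 3.79 in low-difference grafts, 4.23 and 4.52 with anti-IL6R and 4.35 and 2.40 with prednisolone. Both high-difference arrays were the lowest of the 8, and the prednisolone arrays stood apart from each other. The difference was -1.83 (standard error 0.58, adjusted p = 0.31, limma) for high minus low and 2.38 (standard error 0.58, adjusted p = 0.20), a 5.20-fold higher signal, for anti-IL6R minus high.

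Gbp5, of the same family, also promotes inflammasome assembly and was dim. Its levels were -7.53 and -7.26 in high-difference grafts, -5.19 and -5.53 in low-difference grafts, -5.10 and -4.50 with anti-IL6R and -5.12 and -5.71 with prednisolone. Because it was not well above background on either high-difference array, only bounds hold: against high-difference grafts it was brighter by at least 1.07-fold in low-difference, at least 1.58-fold in anti-IL6R and at least 1.03-fold in prednisolone grafts (adjusted p = 0.23, 0.15 and 0.30, limma). A bound sets the brighter group's mean against the lowest signal well above background on each dim array, or the probe's own level where that was higher. With normexp the anti-IL6R minus high difference of Gbp5 was -0.07 and its high minus low difference -0.02.

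Igtp, an immunity-related GTPase, had levels of -1.13 and -1.47 in high-difference grafts, -0.40 and -0.47 in low-difference grafts, -0.32 and -0.06 with anti-IL6R and -0.63 and -1.09 with prednisolone. The high-difference arrays were below the other 6. Its differences were -0.87 (standard error 0.24, adjusted p = 0.31) for high minus low and 1.11 (standard error 0.24, adjusted p = 0.20) for anti-IL6R minus high. Irgm, which regulates that family, differed by -1.62 and 1.83, and Gbp4, not well above background in high-difference grafts, was brighter by at least 1.69-fold in low-difference and by at least 3.28-fold in anti-IL6R grafts.

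Among the transcription factors, Irf7, which drives type I interferon production, stood apart from Irf1, Irf9 and Stat2. Irf7 had levels of 1.23 and 2.20 in high-difference grafts, 2.82 and 2.95 in low-difference grafts, 3.53 and 2.98 with anti-IL6R and 2.09 and 0.95 with prednisolone. Every untreated or prednisolone-treated high-difference array was below every low-difference and anti-IL6R array. The high minus low difference was -1.17 (standard error 0.47, adjusted p = 0.33), and anti-IL6R exceeded high by 1.55 (standard error 0.47, adjusted p = 0.23), a 2.92-fold difference.

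Irf1, the chief secondary factor of interferon-gamma, had levels of -1.02 and -0.92 in high-difference grafts, -0.74 and -0.67 in low-difference grafts, -0.71 and 0.08 with anti-IL6R and -0.28 and -1.58 with prednisolone. Irf9, the DNA-binding part of the type I factor, had levels of -0.66 and -0.32, -0.26 and 0.10, -0.21 and -0.01, and 0.03 and -0.80 in the same order of groups. For both genes the high-difference arrays lay just under the low-difference and anti-IL6R arrays, and high minus low was -0.27 (standard error 0.46) for Irf1 and -0.40 (standard error 0.32) for Irf9, within their errors or close to them. Stat2, its partner, had levels of -1.88 and -1.16, -1.44 and -1.05, -1.23 and -0.86, and -1.15 and -1.41, and its groups overlapped.

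Both feedback inhibitors were lower in the high-difference pair than in both the low-difference and the anti-IL6R pair. Usp18, which removes ISG15 from proteins and blocks IFNAR2, had levels of -3.45 and -2.38 in high-difference grafts, -1.15 and -1.01 in low-difference grafts, -1.74 and -1.29 with anti-IL6R and -2.16 and -3.14 with prednisolone. Low-difference arrays held its highest levels, and the prednisolone arrays lay within or near the high-difference range. Its differences were -1.84 (standard error 0.46, adjusted p = 0.31), a 3.57-fold lower signal, and 1.40 (standard error 0.46, adjusted p = 0.23). Socs1, which inhibits Janus kinases, had levels of -4.93 and -4.77, -4.41 and -4.48, -4.39 and -4.10, and -4.07 and -4.65 in the order high, low, anti-IL6R and prednisolone. Here both prednisolone arrays were also above both high-difference arrays. The differences of Socs1 were -0.41 and 0.60 (standard error 0.25 each), and normexp gave -0.10 for anti-IL6R minus high.

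**Figure D4:**
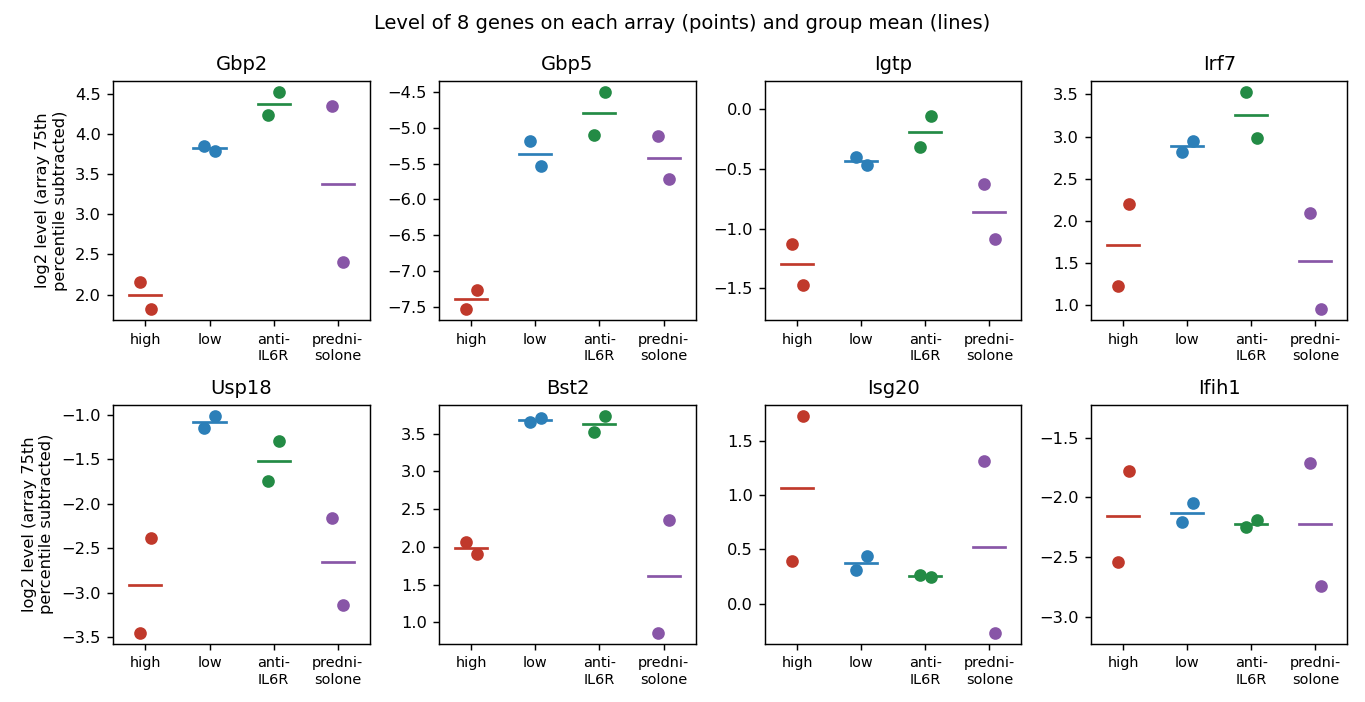
Level of 8 interferon-induced genes (panels) on each array (points, coloured by group) with the mean of each group of 2 arrays (lines), in log2 units after subtraction of the array's 75th percentile; each panel has its own axis. For Gbp2, Gbp5, Igtp and Bst2 the high-difference arrays lie below all low-difference and anti-IL6R arrays, Isg20 is highest on a high-difference array (1.73), and Ifih1 overlaps between all groups.

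Among the sensors of viral RNA the differences were small: the 5 genes had a median of -0.27 for high minus low and 0.18 for anti-IL6R minus high. Ifih1, encoding MDA5, had levels of -2.54 and -1.78 in high-difference grafts, -2.21 and -2.05 in low-difference grafts, -2.25 and -2.19 with anti-IL6R and -1.71 and -2.74 with prednisolone, and all groups overlapped. Dhx58, encoding LGP2, had levels of -2.55 and -2.39, -1.73 and -1.96, -1.43 and -1.89, and -2.43 and -2.61 in the same order. Its arrays fell into a lower set of high-difference and prednisolone grafts and a higher set of the rest, with differences of -0.62 (standard error 0.23, adjusted p = 0.32) and 0.81 (standard error 0.23, adjusted p = 0.22); a second probe of Dhx58 differed by 0.05 and -0.12. Ddx58, encoding RIG-I, had levels of 0.84 and 0.94, 1.67 and 1.29, 1.04 and 1.46, and 0.93 and 0.98, again lowest in high-difference and prednisolone grafts. A second probe of Ddx58, well above background on all 8 arrays, had levels of -1.5 and -2.05, -1.28 and -1.6, -1.88 and -1.52, and -2.16 and -1.78, so that its groups overlapped, with differences of -0.33 for high minus low and 0.08 for anti-IL6R minus high against 0.36 on the first probe. Adar, which edits double-stranded RNA, lay between -3.17 and -2.68 on all arrays, with a high minus low difference of -0.27 (standard error 0.20).

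The effectors against viral RNA and replication had medians of -0.75 and 0.70 over 10 tested genes, with wide scatter. Mx1 and Oasl among them were not well above background in high-difference grafts and were kept only through brighter groups. These medians include their measured values. Mx1, a dynamin-like GTPase that traps viral nucleoproteins, had levels of -7.53 and -5.74 in high-difference grafts, -4.87 and -4.87 in low-difference grafts, -4.49 and -4.38 with anti-IL6R and -5.74 and -6.72 with prednisolone. It was not well above background in high-difference or prednisolone grafts and against high-difference grafts was brighter by at least 1.5-fold in low-difference and by at least 2.03-fold in anti-IL6R grafts, although normexp gave -0.01 for anti-IL6R minus high. Oas1a, which makes the 2-5A signal for RNA decay, had levels of 0.36 and 1.28, 2.02 and 1.88, 1.37 and 1.61, and 0.93 and 0.27 in the order high, low, anti-IL6R and prednisolone. Low-difference arrays were highest, and the differences were -1.12 (standard error 0.36, adjusted p = 0.31) and 0.67 (standard error 0.36, adjusted p = 0.37). Cmpk2, a mitochondrial nucleotide kinase, had levels of -3.87 and -4.06, -3.31 and -3.11, -3.41 and -3.09, and -2.97 and -3.72. Both of its high-difference arrays were the lowest of the 8, with differences of -0.76 and 0.71 (standard error 0.29 each).

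Isg20, an exonuclease for single-stranded RNA, differed the other way. Its levels were 0.39 and 1.73 in high-difference grafts, 0.31 and 0.44 in low-difference grafts, 0.26 and 0.24 with anti-IL6R and 1.31 and -0.27 with prednisolone. One high-difference array was far above the other, the high and low groups overlapped, and high minus low was 0.68 (standard error 0.60, adjusted p = 0.57), or 0.02 without the second high-difference array. Ifit1, which binds foreign RNA caps, also differed the other way on its brightest probe, with levels of -0.22 and -0.46, -0.73 and -0.58, -0.68 and -0.51, and 0.17 and -0.70. Its high minus low difference there was 0.31 (standard error 0.30). Another of its 3 probes, tied by the files to a different RefSeq record, was dimmer and gave -6.12 and -5.67 in high-difference grafts, -4.23 and -4.29 in low-difference grafts and -4.60 and -3.85 with anti-IL6R. The direction for Ifit1 depends on the probe: the mean over its probes gave -0.44 for high minus low and 0.52 for anti-IL6R minus high.

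Of the other effectors, Mx2, Ifit2, Ifit3 and Rsad2 had high minus low differences between -1.17 and -0.60. Oasl was not well above background in high-difference grafts and was brighter in low-difference grafts by at least 1.56-fold. Probes of genes with close relatives, such as the Oas1, Ifit and Ifitm genes, may share target sequence; this was not tested.

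Bst2 was the clearest of the membrane effectors. It encodes tetherin, which holds budding virus at the cell surface, and had levels of 2.07 and 1.90 in high-difference grafts, 3.66 and 3.71 in low-difference grafts, 3.52 and 3.74 with anti-IL6R and 0.86 and 2.36 with prednisolone. All high-difference and prednisolone arrays were below the other 4. The differences were -1.70 (standard error 0.46, adjusted p = 0.31), a 3.25-fold lower signal, and 1.64 (standard error 0.46, adjusted p = 0.22), and a second probe gave -1.70 and 1.66.

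Ifitm1 and Ifitm3, which block viral entry, were less even. Ifitm1 had levels of 1.32 and 1.04, 1.52 and 2.59, 2.22 and 2.13, and 2.33 and 1.18 in the order high, low, anti-IL6R and prednisolone, with differences of -0.87 and 0.99 (standard error 0.48 each). Ifitm3 had levels of 0.89 and 1.0, 0.78 and 1.77, 1.84 and 1.58, and 1.79 and 0.37. For Ifitm3 the low-difference pair straddled the high-difference pair, and high minus low was -0.33 (standard error 0.52).

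The ubiquitin-like and ADP-ribosylation genes had medians of -0.08 and 0.23 over 6 tested genes, and none of their p-values was under 0.05 before adjustment. Isg15, the ubiquitin-like modifier itself, had levels of 0.68 and 2.11 in high-difference grafts, 2.19 and 2.24 in low-difference grafts, 2.01 and 2.36 with anti-IL6R and 1.85 and 0.45 with prednisolone. Its low values were on the first high-difference and the second prednisolone array, and high minus low was -0.82 (standard error 0.59), or -0.11 without the first high-difference array. Herc6, the rodent ISG15 ligase, had levels of -2.18 and -1.06, -1.04 and -1.47, -1.45 and -1.35, and -1.26 and -1.77.

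Parp14, an ADP-ribosyltransferase, had levels of -0.28 and -0.03 in high-difference grafts, -0.38 and 0.05 in low-difference grafts, -0.32 and 0.19 with anti-IL6R and 0.74 and -1.08 with prednisolone. Only the prednisolone arrays fell outside the range of the rest. Dtx3l, the partner ligase of PARP9, had levels of -5.51 and -4.31, -5.14 and -4.47, -4.44 and -4.10, and -3.80 and -5.70, and Trim21, a cytosolic antibody receptor and ubiquitin ligase, had -5.11 and -4.82, -5.24 and -5.13, -4.91 and -4.53, and -4.51 and -5.44. Trim21 was slightly higher in high- than in low-difference grafts, by 0.22 (standard error 0.34). Trim25, the ligase that activates RIG-I, was not tested because 1 spot was marked as an outlier; its measured levels were 2.20 and 2.44 in high-difference grafts, 1.68 and 1.73 in low-difference grafts, 1.90 and 1.80 with anti-IL6R and 2.36 on the first prednisolone array. Those of the high-difference grafts were above the low-difference and anti-IL6R arrays.

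Of the remaining induced genes, Lgals3bp, a secreted galectin-binding protein, had the smallest p in high minus low. Its levels were 2.59 and 3.15 in high-difference grafts, 3.65 and 3.86 in low-difference grafts, 4.01 and 3.70 with anti-IL6R and 3.02 and 2.94 with prednisolone, so that the arrays split into a lower set of 4 and a higher set of 4. The differences were -0.88 (standard error 0.25, adjusted p = 0.31) and 0.98 (standard error 0.25, adjusted p = 0.20). Rtp4, a chaperone of membrane receptors, had levels of -0.82 and 0.75, 1.75 and 1.95, 1.53 and 1.90, and 1.83 and 0.08. It had the largest high minus low difference outside the GTPases, -1.88 (standard error 0.69, adjusted p = 0.32).

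Ifi27, a small mitochondrial and nuclear-envelope protein, had levels of 2.05 and 2.05 in high-difference grafts, 2.73 and 2.87 in low-difference grafts, 3.32 and 2.83 with anti-IL6R and 2.65 and 1.57 with prednisolone. Ifi44 had levels of 0.69 and 1.1, 1.51 and 1.75, 1.52 and 1.88, and 1.74 and 0.86. For both, the high-difference arrays lay below all low-difference and anti-IL6R arrays. Ifi44l, its relative, had levels of -2.01 and -1.72, -2.09 and -1.80, -1.86 and -1.45, and -1.43 and -2.84, with overlap between high and low and a difference of 0.08 (standard error 0.46). Oas1b was not well above background on any array.

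Genes induced chiefly by interferon-gamma (Irf1, Socs1 and the 5 GTPases, a grouping from textbook knowledge) had medians of -1.62 for high minus low, 1.83 for anti-IL6R minus high and 1.11 for prednisolone minus high. The other 34 genes had -0.61, 0.68 and 0.06. In the interferon-gamma group the prednisolone arrays were apart, with median levels relative to each gene's mean of 0.62 and -0.67. In high-difference grafts this median was -1.23 and -0.75. For the other 34 genes it was 0.38 and -0.72 with prednisolone and -0.51 and 0.01 in high-difference grafts. Without the dim genes (not above background on every array) the medians were -0.87, 1.11 and 0.49 for 5 genes of the interferon-gamma group and -0.62, 0.67 and 0.06 for 29 others. Among tested genes with a promoter window, the 22 with ISRE letters had medians of -0.74 and 0.78 in the first 2 of these comparisons. The 9 without them had -0.36 and 0.48. For GAS letters the order was the other way: the 10 genes with them had -0.40 and 0.66, and the 21 without them -0.73 and 0.71. Gbp4 and Gbp5, with ISRE letters, and Mx1 and Oasl, without them, were not well above background in high-difference grafts. They were kept only through brighter groups, and all lack GAS letters in their windows. The medians of the subsets are descriptions, and the difference between the subsets was not tested.

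Of 32 other genes of the interferon pathway, 20 were tested and 0 passed in any comparison; 13 were below 0 in high minus low (median -0.18) and 12 above 0 in anti-IL6R minus high (median 0.24). Interferon-gamma itself (Ifng) had levels of -7.61 and -7.40 in high-difference grafts, -5.84 and -6.36 in low-difference grafts, -5.82 and -5.25 with anti-IL6R and -5.68 and -6.60 with prednisolone. It was not well above background on either high-difference array, but on 1 low-difference and both anti-IL6R arrays, and no difference is given because the bound is under 1-fold. Interferon-beta (Ifnb1) was not well above background on any array.

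The receptors and kinases that were measured differed little: high minus low was -0.10 for Ifnar1, 0.22 for Ifngr2, -0.02 for Jak1 and 0.32 for Jak2. In anti-IL6R minus high the same genes gave 0.30, -0.16, -0.01 and -0.35. Ifngr1 was not tested because of an outlier spot on 1 high-difference array and lay between -0.29 and 0.66 on the other arrays. Ifnar2 and Tyk2 were matched to no probe.

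Most markers of T and NK cells, macrophages and dendritic cells differed between the untreated groups in the same direction as most of the interferon-induced genes. Endothelial and kidney epithelium markers did so too, so the direction was not particular to immune cells. Their medians in high minus low were -0.78 (6 of 6 below 0) and -0.89 (11 of 12), against 44% of all genes below 0. The 3 tested neutrophil markers were mixed, with S100a8 (0.33, standard error 1.3) and S100a9 (1.12, standard error 1.07) above 0. Csf3r was below 0 but not well above background in high- or low-difference grafts. All 12 tested of 15 T and NK cell markers were lower on both high-difference than on both low-difference arrays (23% of all genes). Their median in high minus low was -1.51. All 12 were higher with anti-IL6R than in high-difference grafts (43.2% of all genes), with a median of 2.08. Cd2, Cd3e, Cd4, Cd8a and Gzmb were not well above background on either high-difference array. They were kept only through brighter groups, so their direction was partly set by that filter. Of these, Cd3e and Cd4 were not well above background on either low-difference array as well. Their high minus low differences thus compare dim signals. Cd3d, Cd3g, Cd8b, Zap70, Nkg7 and Prf1, well above background on both, lay between -2.74 and -0.67 in high minus low. In anti-IL6R minus high these lay between 1.16 and 2.78. The summed level of all 12 T and NK cell markers, on a linear scale, was 0.783 and 0.746 in high-difference grafts and 2.16 and 2.14 in low-difference grafts. It was 3.07 and 2.28 with anti-IL6R and 2.53 and 0.986 with prednisolone. Of the 12 tested of 13 macrophage and monocyte markers, 11 were below 0 in high minus low, with a median of -1.44, and Cd14 was above 0 (0.39). Ms4a7 among them was not well above background on either high-difference array. The summed level of these 12 markers was 21.5 and 15.1, 35.7 and 57.9, 73.8 and 48.6, and 104 and 29.2 in the same order. In these 2 marker lists the first prednisolone array was above the second, as for most of the interferon-induced genes. Of 7 dendritic cell markers 3 were tested, with sums of 0.145 and 0.120 in high-difference grafts against 0.278 to 0.390 on all other arrays, and of 4 B cell markers 0 were. The 3 tested of 6 neutrophil markers had a median of 0.33 in high minus low, with 2 above 0, and 1.36 in anti-IL6R minus high, and their sums were 0.43 and 0.219, 0.146 and 0.196, 0.638 and 0.342, and 2.02 and 0.152 in the order high, low, anti-IL6R and prednisolone.

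Among the defining T cell markers, Cd3e was at -7.61 and -7.54 and Cd8a at -7.43 and -7.55 in high-difference grafts, not well above background on either array, whereas Cd3d, at -2.01 and -1.99, was. Endothelial markers summed to 46.5 and 33.9 in high-difference grafts and 57.8 to 67.8 on the other arrays. All 12 kidney epithelium markers were tested. Their sums were 628 and 406, 1090 and 750, 802 and 594, and 434 and 851 in the order high, low, anti-IL6R and prednisolone. Kidney tissue is thus represented on every array. Such sums are weighted towards the brightest probes, here Umod and Lrp2 for kidney epithelium and Kdr for endothelium. Of the 12 single markers, only Cubn (0.06) was above 0 in high minus low. In whole-graft RNA fewer cells of a type and less RNA per cell cannot be told apart, and the part of these markers in the differences of the interferon-induced genes was not tested.

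In prednisolone-treated against untreated high-difference grafts the 41 genes had a median of 0.10, with 27 above 0 (42.4% of all genes) and 14 below 0 (57.6%). Both prednisolone arrays lay above both high-difference arrays for 5 genes (13.9% of all genes): Gbp2, Gbp5, Igtp, Socs1 and Cmpk2. One gene had an unadjusted p under 0.05 with a higher level (4.25%): Gbp5, which was not well above background in high-difference grafts, so that its difference is given only as the bound above. The median depends on single arrays: it was -0.28 without the first prednisolone array, 0.62 without the second and -0.13 without the first high-difference array.

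The 2 prednisolone grafts were unlike each other. The first was higher than the second for 39 of the 41 genes, and the median absolute gap was 1.04, against 0.35, 0.19 and 0.30 in the high, low and anti-IL6R groups. Over all genes tested the gaps were 0.43, 0.28, 0.25 and 0.22 in the order prednisolone, high, low and anti-IL6R. The measured gap was largest for Gbp4 (2.96) and Oasl (2.47), each well above background on only 1 of the 2 arrays. Of the 5 sensors, Ddx58 (-0.05), Eif2ak2 (0.04), Adar (0.11) and Dhx58 (0.18) were close to 0 and Ifih1 (1.04) was at the median. Bst2 ran the other way by -1.51, and on its first prednisolone array it had the lowest level of all 8. The summed neutrophil markers, given above, also differed between these arrays; their part in the gap was not tested.

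**Figure D5:**
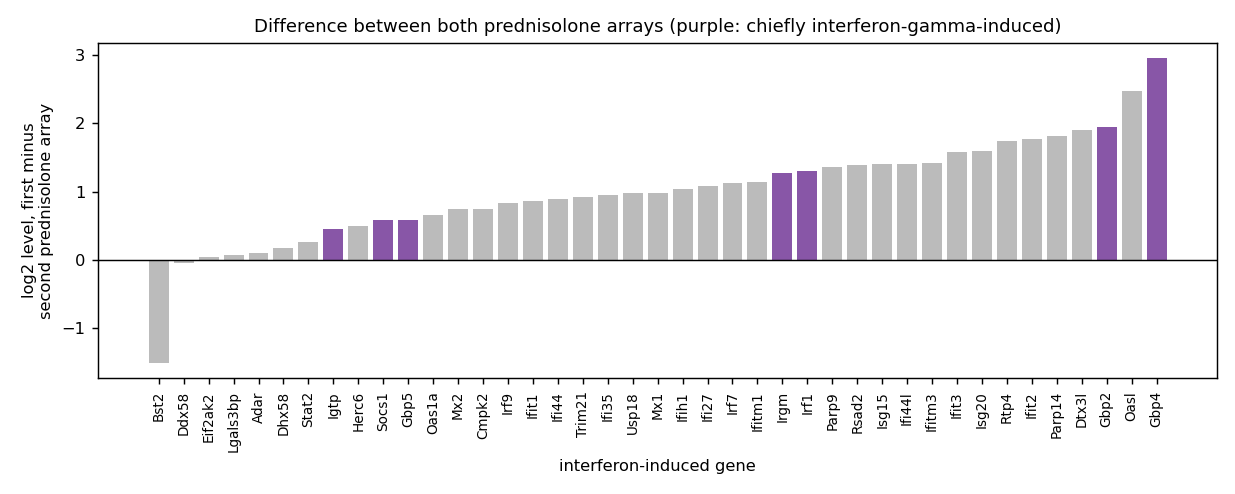
Log2 level on the first minus the second prednisolone array for each of the 41 genes, sorted; purple bars are genes induced chiefly by interferon-gamma. Bars are above 0 for 39 genes, reach 2.96 for Gbp4 and are below 0 for Bst2 (-1.51) and Ddx58 (-0.05).

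Between the treatments, 38 of the 41 genes were higher with anti-IL6R than with prednisolone (48.1% of all genes), with a median of 0.48. Both anti-IL6R arrays exceeded both prednisolone arrays for 16 genes (11.9%). For 9 genes the unadjusted p was under 0.05 (2.58%): Irf7, Usp18, Dhx58, Mx1, Oas1a, Bst2, Igtp, Ifi27 and Lgals3bp. Mx1 of these was not well above background on either prednisolone array, so only a bound holds: it was brighter with anti-IL6R by at least 2.01-fold. Bst2 differed most, by 2.02 (standard error 0.46), a 4.05-fold difference, and Irf7 by 1.74 (standard error 0.47). The adjusted p was 1 for all of them; Gbp2 alone of the genes passed without the first prednisolone array (1.62% of all genes) and Bst2 alone without the second (0.251%). The median was 1.0 without the first prednisolone array and -0.04 without the second.

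Against low-difference grafts the lowest adjusted p of the 41 genes was 0.57, and the values that follow are sizes only. Anti-IL6R minus low had a median of 0.10, and 10 of the 41 genes were non-overlapping and higher (15.4% of all genes) and 4 lower (23.9%). All 5 GTPases were above 0, between 0.22 and 0.96, and the 4 lower genes were Usp18 (-0.44), Oas1a (-0.46), Oasl (-0.27) and Isg20 (-0.12). Prednisolone minus low had a median of -0.30, and both prednisolone arrays were below both low-difference arrays for 14 genes (16.8%). Of these, 7 had an unadjusted p under 0.05 (3.68%): Irf7, Usp18, Dhx58, Mx2, Oas1a, Bst2 and Lgals3bp. All 5 GTPases were also below 0 in prednisolone minus low, with a median of -0.45, and both prednisolone arrays of Igtp lay below its low-difference arrays. The median was -0.88 without the first prednisolone array and 0.16 without the second, when Bst2 passed the adjusted threshold (0.59% of all genes). Bst2 had the largest difference, a 4.21-fold lower signal with prednisolone.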

How the data were processed

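Total RNA (1 µg per graft) was labelled with Cy3, per the labels' protocols. The deposited files hold, per spot, a processed signal intensity from Feature Extraction 9.5.1.1, background-subtracted and not scaled between arrays, per the file headers. The authors' deposited value table, also intensity, served as an alternative. Control and outlier-marked spots were left out, replicate spots averaged as log2, and each array's 75th percentile subtracted. A probe was kept where some group had both arrays well above background, with the brightest probe per gene. Names were updated through RefSeq tables (10735 probes by accession, 5577 by symbol, 3730 by synonym). The files name no genome build for probes, so no probe positions are given. All 8 arrays entered 1 limma 3.58.1 fit (R 4.3.3; eBayes without trend; 4 residual and 2.37 prior degrees of freedom), tested on simulated data. An exact permutation of 2 against 2 arrays was too small to be used. Replicate numbers did not pair the samples. The members, lists, naming rule (up to 3 smallest p per role and comparison, and genes opposite in sign to the median) and alternatives were chosen with earlier results of these data known. The values of 1 pathway gene that the naming rule lists are not reported here.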

Additional observations from a re-analysis of the deposited data

How the results depend on the processing

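The number of the 41 genes past the threshold was 0 in every comparison under normexp, quantile normalization, subtraction of the array median, the authors' value table, no filter, a strict filter, the mean over probes and a variance trend, and in the 1 comparison that each slide alone allows (high minus low, and anti-IL6R minus prednisolone). The replicate numbers did not pair the samples (correlations of replicate gaps between groups from -0.35 to 0.37), and the fit with the replicate number as a block also called 0 genes, with a median of -0.70 for high minus low. When 1 array was left out, the number called was 0 to 3 for anti-IL6R minus high, 0 to 1 for anti-IL6R minus prednisolone, 0 to 1 for prednisolone minus low and 0 to 0 for the other 3. The 3 genes were Bst2, Gbp2 and Gbp5, found when either prednisolone array was left out, in fits that called 157 (0.633%) and 126 (0.503%) of all genes. In anti-IL6R minus prednisolone the single genes were Gbp2 without the first (1.62% of all genes called) and Bst2 without the second (0.251%), and in prednisolone minus low Bst2 without the second (0.59%). The lone array left in a group was then assumed to vary like the others. Gbp5 was not well above background on either high-difference array and was kept only through brighter groups. Its direction was thus partly set by that filter.

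Leaving out 1 array moved the median over the genes from -0.82 to -0.52 for high minus low, 0.36 to 0.86 for anti-IL6R minus high, -0.28 to 0.62 for prednisolone minus high, -0.04 to 1.0 for anti-IL6R minus prednisolone, -0.04 to 0.19 for anti-IL6R minus low and -0.88 to 0.16 for prednisolone minus low. Other processing gave -0.70 to -0.37 and 0.33 to 0.71 for the first 2.

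Normexp moved the median of all genes in anti-IL6R minus high from -0.09 to -0.22 and left 31 of the 41 genes above 0, not 38. It turned the sign of Dtx3l (0.23) and Parp14 (-0.05) in high minus low, and of Socs1 (-0.10), Adar (-0.06), Mx1 (-0.01), Oasl (-0.10), Trim21 (-0.14), Dtx3l (-0.09) and Gbp5 (-0.07) in anti-IL6R minus high; the cause was not tested. Ifih1 was at 0.00 for high minus low with the array median or the authors' table. The mean over probes gave -0.44 and 0.52 for Ifit1. Leaving out 1 array turned the sign of 12 of the 41 genes in either of these comparisons. The 10 in high minus low ranged from -0.64 to 0.09 for Stat2, -0.41 to 0.35 for Ifih1, -1.37 to 0.17 for Ifit3, -0.83 to 0.17 for Ifitm3, -0.92 to 0.19 for Herc6, -0.70 to 0.50 for Dtx3l, -0.23 to 0.09 for Parp9, -0.20 to 0.23 for Parp14, -0.23 to 0.17 for Ifi35 and -0.07 to 0.23 for Ifi44l. The 7 in anti-IL6R minus high ranged from -0.44 to 0.32 for Ifih1, -0.11 to 0.39 for Eif2ak2, -0.06 to 1.44 for Mx2, -0.34 to 0.78 for Herc6, -0.09 to 0.41 for Parp9, -0.17 to 0.34 for Parp14 and 0.00 to 0.42 for Ifi44l. With 2 arrays a group, and Mx1, Oasl, Gbp4 and Gbp5 not well above background in high-difference grafts, sizes are imprecise.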
